A study of Mus musculus with 8 samples.

Results

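The genes described here are 10 transcripts of uterine stroma that stood higher in Atg7-deleted than in control libraries: Dpt, Clec3b, Serpinf1, Cela1, Saa3, Draxin, Dpep1, Selm, Ak1 and Plac8. They were found by symbol among the 23238 symbols of the deposited tables. All 10 were among the 13347 genes with enough reads to be tested (Dpep1 through deleted E2 libraries alone, Saa3 through E2 libraries alone). They were chosen by their higher counts in deleted than in control libraries in an earlier look at these data, with no fixed threshold, so the deletion difference is given for them as a description, with no test. Their response to estradiol, averaged over both genotypes, is a contrast other than the differences used for the choice, and it was tested. It comes from the same libraries, and it is free of the choice only if the spread is equal between groups, which was not tested. The response within 1 genotype shares its libraries with the deletion differences that chose the genes, so it is given as a description, with no p-value.

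All libraries were made from RNA of stromal cells taken from the uterus of ovariectomized C57BL/6-ICR mice, and how the cells were separated is not stated. The 4 groups had 2 libraries each: control Atg7f/f mice given oil, control mice given estradiol (E2), Atg7d/d mice given oil and Atg7d/d mice given E2. In the deleted mice (Atg7f/f;Amhr2cre) the recombinase is expressed from Amhr2, which marks mesenchyme of the female tract. No group carries the recombinase with Atg7 intact, so effects of the recombinase and of the lost gene cannot be told apart. The number of animals per library, their age, and the dose and time of E2 are not given in the labels, and a p-value here reflects the spread of these libraries alone, which may be technical.

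ATG7 is the enzyme that starts both conjugation reactions of autophagy, by which LC3 is attached to membranes and ATG12 to its partner, and cells without it form few working autophagosomes. Estradiol, the main ovarian estrogen, acts on stromal cells through nuclear receptors that bind response elements in DNA and through other transcription factors. Stromal fibroblasts make the matrix of the uterine wall and many secreted regulators, and several of the genes below encode such proteins.

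Library totals ran from 5453943 to 6944769 counts, and the reads come from the 3′ ends of transcripts. Levels are given as CPM (counts scaled to a common library size), scaled with the trimmed mean of M-values, and group values are mean ± SD (n = 2 libraries each). Fold changes are log2 values ± SE from the edgeR quasi-likelihood model of all 4 groups, and a gene was called at a Benjamini-Hochberg adjusted p below 0.05 over all tested genes. Atg7 itself stood at -0.09 ± 0.42 (deleted over control) in oil and 0.28 ± 0.44 after E2, with no call in edgeR. Reads from the 3′ end do not check the genotype labels, because loss of internal exons can leave that end transcribed. In RNA from mixed cells, more cells of a type and more RNA per cell cannot be told apart.

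With E2, 9 of the 10 genes rose and Clec3b fell on the average over genotypes. Dpep1 and Saa3 are counted here and in the median below, but their calls are no support. Dpep1 entered the test only through deleted E2, and Saa3 only through E2 libraries. Among all tested genes 24.1% rose and 22.2% fell in the same test, so E2 calls were common in this experiment. The median absolute log2 fold change was 2.03 over the 10 genes and 0.55 over all tested genes. All 4 E2 libraries lay above all 4 oil libraries for Dpt, Serpinf1, Cela1, Saa3, Ak1 and Plac8, a pattern seen in 24.3% of all tested genes. All 4 lay below for Clec3b (21.5% of all tested genes), and the groups overlapped for Selm, Draxin and Dpep1.

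**Figure D1:**
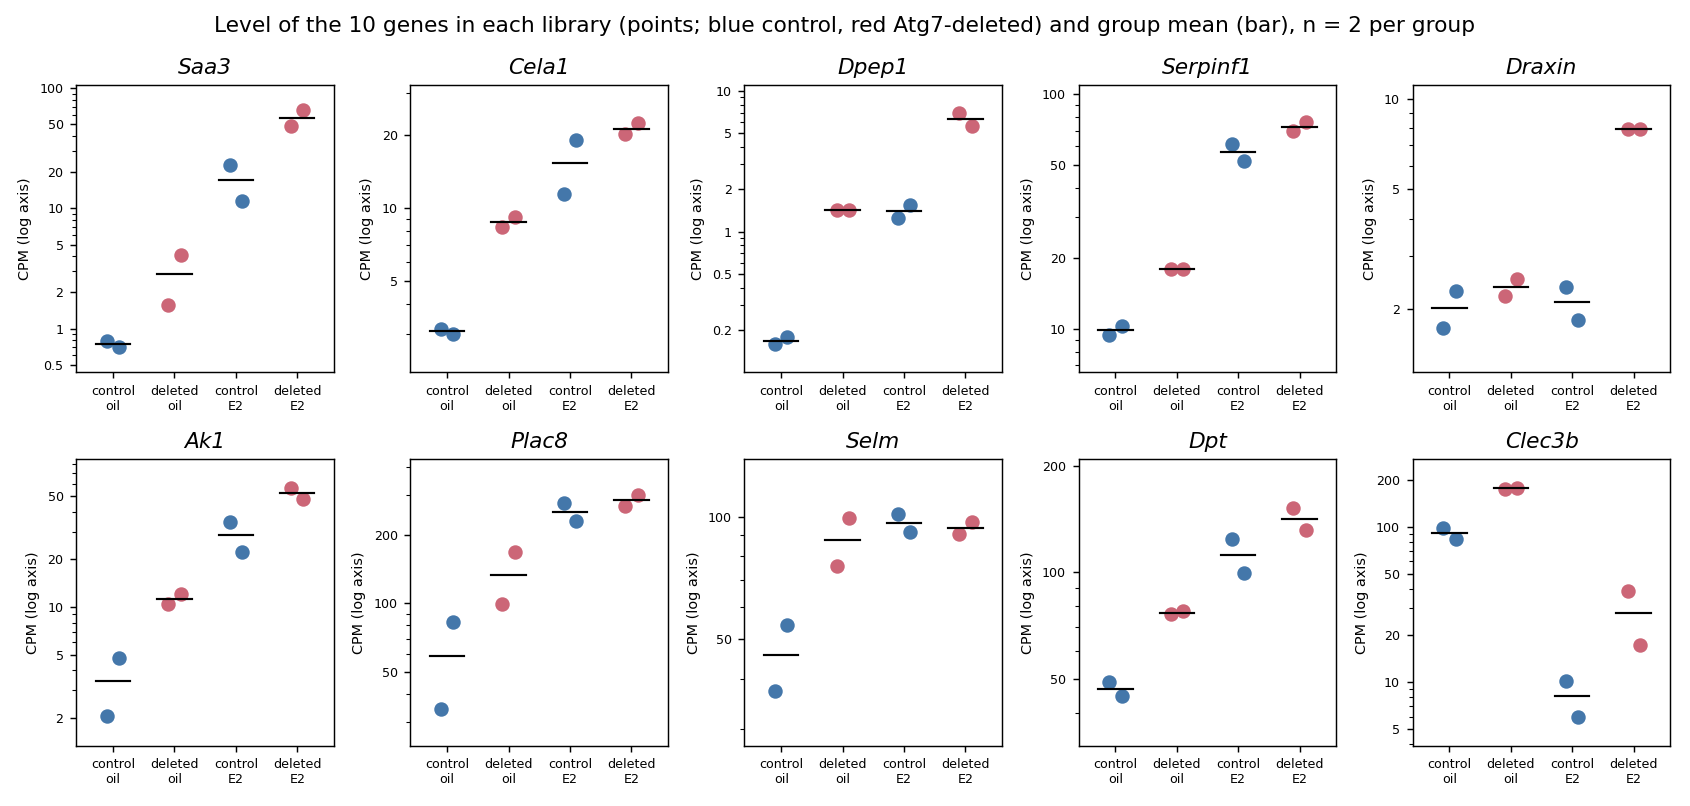
CPM of each of the 10 genes (log axis) in the 8 libraries, with 1 point per library, blue for control and red for Atg7-deleted, and a bar at each group mean. Clec3b is the only gene whose E2 libraries all lie below its own oil libraries, and Draxin is near 2 CPM in every group but deleted E2, at 7.92 and 7.93.

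Dpt (chromosome 1, 164796644 to 164824266, plus strand, mm10 with GENCODE M21, here and below) encodes dermatopontin, a small matrix protein that binds decorin and affects how collagen fibrils form. Its level was 48.7 and 44.6 CPM in control oil, 76.0 and 77.5 in deleted oil, 124 and 99.3 in control E2, and 151 and 131 in deleted E2. Deleted libraries stood above control libraries in both treatments without overlap, by 0.72 ± 0.18 in oil and 0.34 ± 0.18 after E2. Dpt rose with E2 by 1.07 ± 0.13 on average (edgeR adjusted p = 0.000312). The fitted response was 1.26 ± 0.18 in control and 0.88 ± 0.18 in deleted stroma. An antisense gene, Gm32569, overlaps Dpt, and whether the counting used strand is not given in the sources used here.

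The promoter window of Dpt, from 250 bases before to 50 after the RefSeq start, is printed to show its match to the C/EBP site, a site of factors that act in acute phase and stromal genes. Here and below, capitals mark matches to GGTCA (an arm of the estrogen response element), TATAAA (the box of core promoters), TTGCNNAA (C/EBP site) and GGGCGG (GC box) on either strand. The sequence is from RefSeq (GRCm38.p6), chr1:164796413-164796712, plus strand.
Dpt: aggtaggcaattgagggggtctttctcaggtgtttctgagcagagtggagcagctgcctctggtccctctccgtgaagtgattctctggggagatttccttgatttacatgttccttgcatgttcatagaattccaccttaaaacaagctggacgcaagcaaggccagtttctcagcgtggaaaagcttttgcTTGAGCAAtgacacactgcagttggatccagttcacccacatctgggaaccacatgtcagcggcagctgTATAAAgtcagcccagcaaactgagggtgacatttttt
In this window the C/EBP match began at position -57 relative to the annotated start and the TATA box match at position 13.

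Clec3b (chromosome 9, 123150946 to 123157432, plus strand) encodes tetranectin, a secreted lectin that binds plasminogen, the precursor of plasmin. Libraries of control oil held 98.0 and 83.6 CPM, those of deleted oil 176 and 178, those of control E2 10.2 and 5.99, and those of deleted E2 38.3 and 17.3. It was the only gene of the 10 with its highest levels in oil, and deleted libraries stood above control in both treatments without overlap. The deletion difference was 0.96 ± 0.34 in oil and 1.77 ± 0.38 after E2, and the latter was 1.09 without deleted E2 library 1. With E2, Clec3b fell by 3.08 ± 0.26 on average (edgeR adjusted p = 7.72e-05). The fitted response was -3.48 ± 0.39 in control and -2.67 ± 0.36 in deleted stroma, and the latter was -3.35 without deleted E2 library 1.

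Serpinf1 (chromosome 11, 75409769 to 75422701, minus strand) encodes PEDF, a secreted serpin that does not inhibit proteases and restrains vessel growth. It stood at 9.47 and 10.3 CPM in control oil and at 18.0 in each deleted oil library. After E2 it reached 61.3 and 51.8 CPM in control and 69.8 and 76.0 in deleted stroma, so deleted libraries were above control in both treatments. The differences were 0.87 ± 0.20 in oil and 0.37 ± 0.18 after E2. Its E2 response was 2.27 ± 0.14 on average (edgeR adjusted p = 2.11e-05). The fitted response was 2.52 ± 0.20 in control and 2.02 ± 0.19 in deleted stroma.

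Cela1 (chromosome 15, 100674421 to 100687921, minus strand) encodes a chymotrypsin-like elastase, a serine protease first known from the digestive tract. Control oil libraries held 3.16 and 3.01 CPM, deleted oil 8.38 and 9.14, control E2 11.5 and 19.2, and deleted E2 20.2 and 22.5. Deleted libraries were above control without overlap in both treatments, by 1.50 ± 0.34 in oil and 0.48 ± 0.29 after E2 (0.15 without control E2 library 1). Cela1 rose with E2 by 1.79 ± 0.22 on average (edgeR adjusted p = 0.000364). Its fitted response was 2.30 ± 0.33 in control and 1.28 ± 0.30 in deleted stroma. Cela1 lies 1.76 megabases from Amhr2, the gene that carries the recombinase, and it is the only gene of the 10 on a chromosome of Amhr2 or Atg7. The part of that linkage in the deletion difference was not tested.

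The promoter windows of Serpinf1 and Cela1 are printed because each holds 2 copies of the GGTCA arm, more than the other windows of the set except 1 of the 4 of Ak1. They come from RefSeq (GRCm38.p6): Serpinf1 at chr11:75422574-75422873 and Cela1 at chr15:100687871-100688170, both on the minus strand and written in the direction of the gene.
Serpinf1: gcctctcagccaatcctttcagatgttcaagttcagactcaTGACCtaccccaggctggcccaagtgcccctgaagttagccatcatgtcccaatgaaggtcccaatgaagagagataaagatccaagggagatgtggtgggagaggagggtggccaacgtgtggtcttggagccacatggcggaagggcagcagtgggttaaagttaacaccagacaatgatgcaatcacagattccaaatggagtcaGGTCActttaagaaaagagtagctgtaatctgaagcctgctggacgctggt
Cela1: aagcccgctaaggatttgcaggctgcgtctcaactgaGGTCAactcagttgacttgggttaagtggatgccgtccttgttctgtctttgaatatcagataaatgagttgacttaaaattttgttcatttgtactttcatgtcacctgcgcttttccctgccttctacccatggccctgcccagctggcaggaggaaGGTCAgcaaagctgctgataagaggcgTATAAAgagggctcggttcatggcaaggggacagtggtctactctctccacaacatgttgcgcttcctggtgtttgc
In Serpinf1 the arms began at positions -209 (on the opposite strand) and -1 relative to the start, and in Cela1 at -213 and -54. The TATA box match of Cela1 began at -27.

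Saa3 (chromosome 7, 46711998 to 46715700, minus strand) encodes a serum amyloid A protein made outside the liver, one of the acute phase proteins that rise in inflammation. Control oil libraries had 5 and 4 reads (0.789 and 0.708 CPM) and deleted oil libraries 10 and 26 (1.58 and 4.10 CPM). After E2 the level was 22.8 and 11.5 CPM in control and 48.4 and 65.3 in deleted stroma, with no overlap between genotypes in either treatment. The deletion difference was 1.89 ± 0.67 in oil and 1.73 ± 0.39 after E2. The oil value was 1.06 without deleted oil library 2 and 2.42 without deleted oil library 1. Saa3 had the largest fitted E2 response of the 10 genes, at 4.40 ± 0.36 on average, given as a description. It reached the low-count filter in both libraries of each E2 group, in deleted oil library 2 and in no control oil library. Saa3 thus entered the test only through the groups where it was highest, and nothing is read from its E2 call. The fitted response was 4.48 ± 0.57 in control and 4.32 ± 0.46 in deleted stroma, and the latter was 5.16 without deleted oil library 2 and 3.79 without deleted oil library 1. Reads in control E2 were 23.2-fold those in control oil, with a 95% exact counting interval of 12.0 to 51.4 that covers counting error only. Saa3 has close relatives in Saa1 and Saa2, and how reads matching several genes were counted is not given in the sources used here.

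The promoter window of Saa3, shown for the steepest E2 response, is from RefSeq (GRCm38.p6), chr7:46715627-46715926, minus strand.
Saa3: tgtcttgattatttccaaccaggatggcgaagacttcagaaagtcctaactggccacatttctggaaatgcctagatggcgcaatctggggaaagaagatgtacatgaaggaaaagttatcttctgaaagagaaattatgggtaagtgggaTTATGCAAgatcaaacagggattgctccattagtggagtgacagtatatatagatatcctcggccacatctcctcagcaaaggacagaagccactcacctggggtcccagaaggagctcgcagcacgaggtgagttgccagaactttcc
It held a C/EBP match at position -99 and no match to the other marked motifs.

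Draxin (chromosome 4, 148098437 to 148130698, minus strand) encodes a secreted guidance protein that binds the netrin receptor DCC and restrains Wnt signalling. Reads were few: 11 and 13 in control oil, 14 and 16 in deleted oil, 17 and 12 in control E2, and 44 and 49 in deleted E2. In CPM these were 1.74 and 2.30, 2.21 and 2.52, 2.37 and 1.84, and 7.92 and 7.93. Genotypes overlapped in oil (0.23 ± 0.43) and were apart after E2 (1.90 ± 0.39). The fitted E2 response was 0.07 ± 0.43 in control and 1.73 ± 0.39 in deleted stroma. The average of 0.90 ± 0.29 (edgeR adjusted p = 0.0301) was lost in 6 of 8 fits without 1 library, those without control oil library 1, control E2 library 1 or any deleted library (edgeR adjusted p from 0.0601 to 0.103). The 5′ part of Draxin overlaps Mad2l2 on the opposite strand by 315 bases.

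The promoter window of Draxin, the only 1 of the set with GC boxes, is from RefSeq (GRCm38.p6), chr4:148130649-148130948, minus strand.
Draxin: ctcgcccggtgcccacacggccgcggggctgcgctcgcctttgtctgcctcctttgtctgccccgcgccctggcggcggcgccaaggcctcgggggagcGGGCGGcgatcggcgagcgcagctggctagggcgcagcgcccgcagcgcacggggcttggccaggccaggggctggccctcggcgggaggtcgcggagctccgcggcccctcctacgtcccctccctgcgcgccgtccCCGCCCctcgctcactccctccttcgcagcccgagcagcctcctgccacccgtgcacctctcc
It was 78.0% G or C, against a median of 52.7% over all windows in the RefSeq table.

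Dpep1 (chromosome 8, 123186242 to 123201812, plus strand) encodes a membrane-anchored dipeptidase that cleaves products of glutathione and leukotriene breakdown. It had 1 read in each control oil library and 9 in each deleted oil library, or 0.158 and 0.177 against 1.42 and 1.42 CPM. Counts after E2 were 9 and 10 in control and 39 and 35 in deleted stroma, or 1.26 and 1.54 against 7.02 and 5.66 CPM. No library of 1 genotype overlapped the other in either treatment. The fitted E2 response of Dpep1 was 2.53 ± 0.41 on average, given as a description. Deleted E2 was the only group in which it reached the 1.58 CPM of the low-count filter. It thus entered the test only through the group where it was highest, and nothing is read from its E2 call. Gm20388, a protein-coding gene on the same strand, covers all 15571 bases of Dpep1 in the annotation, so counting by strand would not separate their reads.

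Selm (chromosome 11, 3514684 to 3517351, plus strand), now named Selenom, encodes selenoprotein M, a selenocysteine protein of the endoplasmic reticulum. It measured 37.4 and 54.2 CPM in control oil and 75.7 and 99.3 in deleted oil. After E2 it was 102 and 91.9 CPM in control and 90.9 and 96.9 in deleted stroma, so the genotypes were apart in oil only and overlapped after E2. The deletion difference was 0.94 ± 0.22 in oil and -0.04 ± 0.22 after E2. It was 0.72 in oil without control oil library 1. The fitted E2 response was 1.08 ± 0.22 in control and 0.10 ± 0.22 in deleted stroma. The average of 0.59 ± 0.16 (edgeR adjusted p = 0.0136) missed the threshold without deleted oil library 1 (0.0512) and without deleted E2 library 2 (0.0503).

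Ak1 (chromosome 2, 32621758 to 32635058, plus strand) encodes the cytosolic adenylate kinase that balances ATP, ADP and AMP. The libraries read 2.05 and 4.78 CPM in control oil, 10.4 and 12.1 in deleted oil, 34.4 and 22.4 in control E2, and 56.3 and 48.0 in deleted E2. Genotypes did not overlap in either treatment, with differences of 1.74 ± 0.39 in oil and 0.88 ± 0.31 after E2. The oil difference was 1.27 without control oil library 1 and 2.42 without control oil library 2. Ak1 rose with E2 by 2.64 ± 0.25 on average (edgeR adjusted p = 0.000118). The fitted response was 3.07 ± 0.38 in control (2.60 without control oil library 1 and 3.75 without library 2) and 2.21 ± 0.33 in deleted stroma.

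Plac8 (chromosome 5, 100553725 to 100572245, minus strand) encodes a small cysteine-rich protein of the cytoplasm that has been linked to fusion of autophagosomes with lysosomes in tumour cells. It stood at 34.2 and 83.0 CPM in control oil, 99.9 and 168 in deleted oil, 275 and 230 in control E2, and 269 and 299 in deleted E2. Genotypes were apart in oil (1.19 ± 0.38) and overlapped after E2 (0.17 ± 0.37). The oil difference was 0.72 without control oil library 1 and 1.93 without control oil library 2. Control oil library 1 was the lowest of the 8 libraries for 6 of the 10 genes (Plac8, Ak1, Selm, Serpinf1, Draxin and Dpep1) and had the highest summed epithelium markers (18667 CPM against 6444 in control oil library 2). The part of this in the differences was not tested. Plac8 rose with E2 by 1.60 ± 0.27 on average (edgeR adjusted p = 0.00162). The fitted response was 2.11 ± 0.39 in control (1.64 without control oil library 1 and 2.85 without library 2) and 1.09 ± 0.38 in deleted stroma.

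Within genotypes, 9 of the 10 genes were past the edgeR threshold for E2 in control stroma (8 higher and Clec3b lower) and 8 in deleted stroma (7 higher and Clec3b lower). Over all tested genes 29.8% were past it in control (15.8% higher and 14.0% lower) and 24.3% in deleted stroma (13.1% higher and 11.2% lower). Dpt, Serpinf1, Cela1, Saa3, Dpep1 and Ak1 were higher in both (10.9% of all tested genes), and Clec3b was lower in both (9.29%). These counts rest on libraries that also enter the deletion differences, low control oil values raise the response in control stroma by construction, and nothing is read from them. The count of 8 in deleted stroma was 4 without deleted oil library 1, deleted oil library 2 or deleted E2 library 1, and 5 without deleted E2 library 2.

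**Figure D2:**
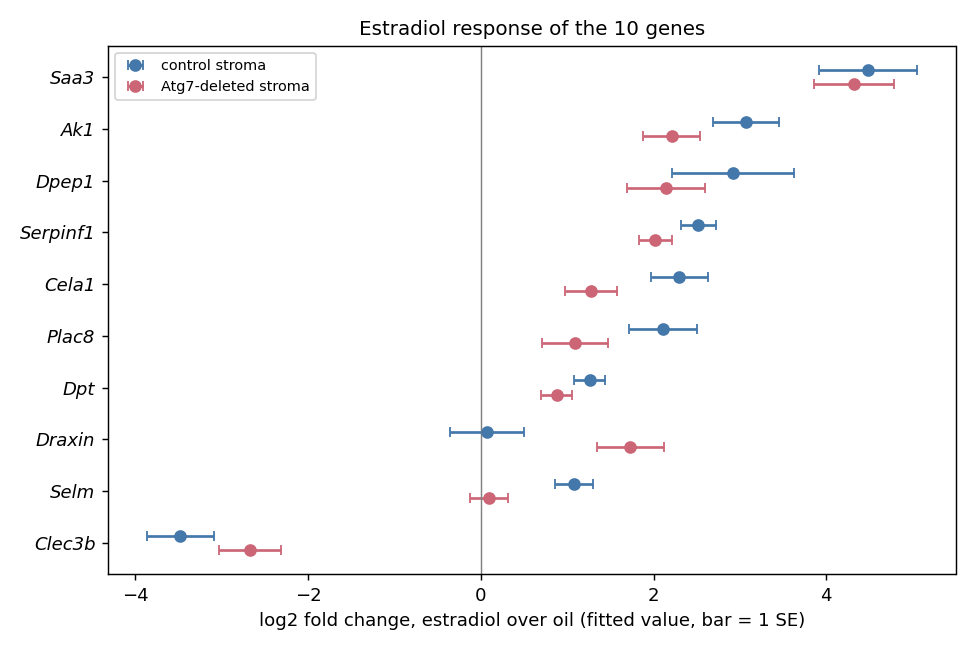
Log2 fold change of E2 over oil for each gene in control (blue) and Atg7-deleted stroma (red), fitted values with bars of 1 SE. Saa3 lies farthest to the right (4.48 and 4.32), Clec3b farthest to the left (-3.48 and -2.67), and Selm and Draxin each have 1 genotype near 0.

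The difference between the E2 responses (deleted minus control) is made of the same deletion differences that chose the genes, so it is described without a test. It was below 0 for 8 of the 10 genes, against 51.1% of all tested genes. The values were -0.98 ± 0.31 for Selm, -1.02 ± 0.44 for Cela1, -1.02 ± 0.53 for Plac8, -0.86 ± 0.50 for Ak1, -0.78 ± 0.82 for Dpep1, -0.50 ± 0.27 for Serpinf1, -0.38 ± 0.26 for Dpt and -0.17 ± 0.70 for Saa3. It was above 0 for Draxin (1.66 ± 0.58) and Clec3b (0.81 ± 0.50). The value of Saa3 was 0.41 without control E2 library 1 and 0.67 without deleted oil library 2, and that of Clec3b was 0.12 without deleted E2 library 1. Without control oil library 1 it was -0.39 for Ak1 and -0.55 for Plac8, and without control oil library 2 it was -1.54 and -1.76.

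Side by side, the deletion difference of all 10 genes was above 0 in oil. After E2 it was above 0 for 9, with Selm at -0.04. On average it was above 0 for all 10, as for 47.6% of all tested genes. Both deleted libraries lay above both control libraries in oil for 9 genes, where 12.9% of all tested genes did so, and Draxin was the exception. After E2 they did so for 8 genes (16.0% of all tested genes), with Selm and Plac8 the exceptions. In both treatments they did so for 7 genes (2.89% of all tested genes). By size of the average deletion difference, the 10 genes ranked between 5 (Dpep1, at 2.56) and 865 (Selm, at 0.45) of 13347, so they are not the 10 largest differences. In the edgeR test no gene of the whole table was called for the deletion in oil, after E2 or on average (0% each), while 339 genes (2.54%), 403 genes (3.02%) and 543 genes (4.07%) had an unadjusted p below 0.05. DESeq2 called 0, 0 and 3, and the 3 were Ak1, Clec3b and Saa3, from which nothing can be read since they were chosen on this difference.

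**Figure D3:**
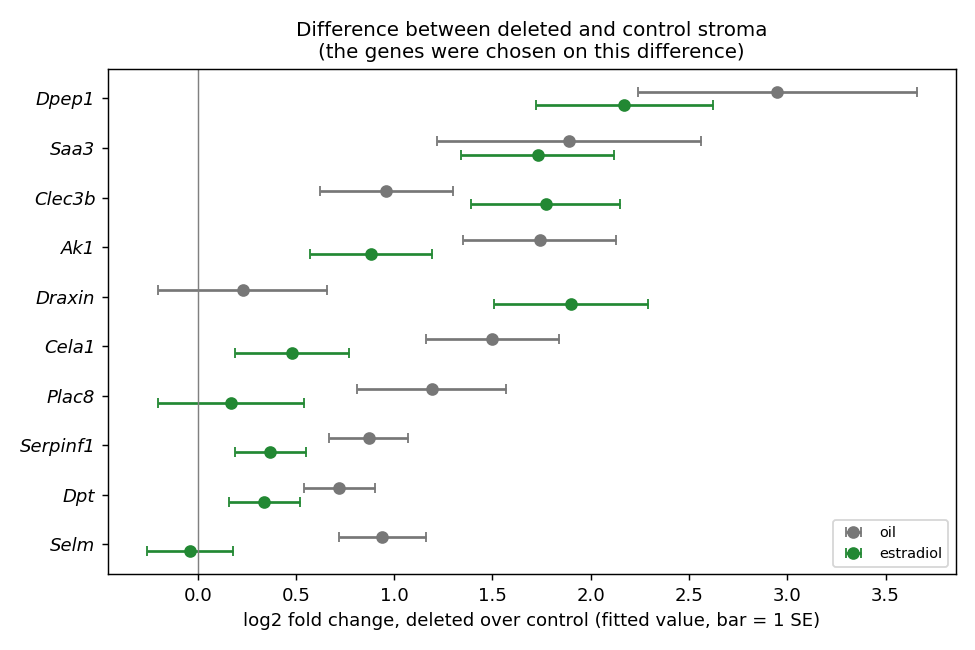
Log2 fold change of deleted over control stroma for each gene in oil (grey) and after E2 (green), fitted values with bars of 1 SE, in order of the average. Dpep1 and Saa3 lie to the right in both treatments, Selm and Plac8 are near 0 after E2, and Draxin is near 0 in oil.

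The cell types that make these transcripts were not separated. Fibroblast markers summed to 2069 to 2549 CPM in control oil and 2489 to 3124 in deleted oil, and to 6892 to 10019 and 9136 to 10075 after E2. Of 14 fibroblast markers, 10 rose and 2 fell with E2 on average, among them Col1a1, a chain of type I collagen, at 5.19 ± 0.22 (edgeR adjusted p = 9.16e-06). Of 20 markers of adventitial fibroblasts, the cells around vessels in which Dpt and Clec3b are often found, 10 rose and 3 fell. Cd248 rose by 2.57 ± 0.17 and Col15a1 by 2.42 ± 0.20, so Dpt rose like 10 genes of that list and Clec3b fell like 3. The summed list was 1377 to 1623 CPM in control oil against 1651 to 2092 in deleted oil, and 2943 to 3467 against 3127 to 3907 after E2. Of 12 stromal transcription factors 5 rose and 1 fell, with Hoxa11 at 1.27 ± 0.18.

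Markers of other cell types were present in every group. Summed epithelium markers ran from 6444 to 18667 CPM in control oil and from 5064 to 11673 in deleted oil, and were 1540 to 3165 and 1527 to 2105 after E2. Of 18 epithelium markers 10 fell and 2 rose with E2. Of 12 tested macrophage markers (of 14) 5 rose and 1 fell with E2, and none was called for the deletion in edgeR. The sum over the list was higher in deleted libraries in both treatments, at 163 to 200 CPM in control oil against 204 to 239 in deleted oil, and 211 to 253 against 292 to 368 after E2. C1qa, a complement gene of macrophages, stood at 29.9 ± 9.25 and 51.9 ± 2.34 CPM in control and deleted oil and at 57.7 ± 21.6 and 85.2 ± 1.83 after E2. Cd14, also on the list, differed little, at 28.3 ± 2.07 and 29.1 ± 7.41 CPM in oil and 66.5 ± 20.2 and 72.1 ± 0.24 after E2. Fcgr1, with few reads, had deletion differences of 0.60 ± 1.12 in oil and -0.11 ± 0.64 after E2. The median deletion difference of the tested macrophage markers was 0.49 in oil and 0.58 after E2. Summed mesothelium markers overlapped in oil (325 to 365 against 341 to 352 CPM) and were higher in deleted stroma after E2 (404 to 576 against 298 to 374), with 6 of 12 tested. Aldh1a2, a retinoic acid enzyme on that list that stroma can also express, held 264 ± 103 CPM of that sum in deleted E2 and 145 ± 57.0 in control E2. Wt1 held 131 ± 36.2 and 92.8 ± 10.8 CPM. Gpm6a went the other way, at 8.16 ± 3.99 in deleted E2 and 11.2 ± 1.31 in control E2. The median deletion difference of the tested mesothelium markers was 0.17 after E2. The part of macrophage and mesothelium RNA in the deletion differences of Saa3, Plac8 and the other genes was not tested.

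**Figure D4:**
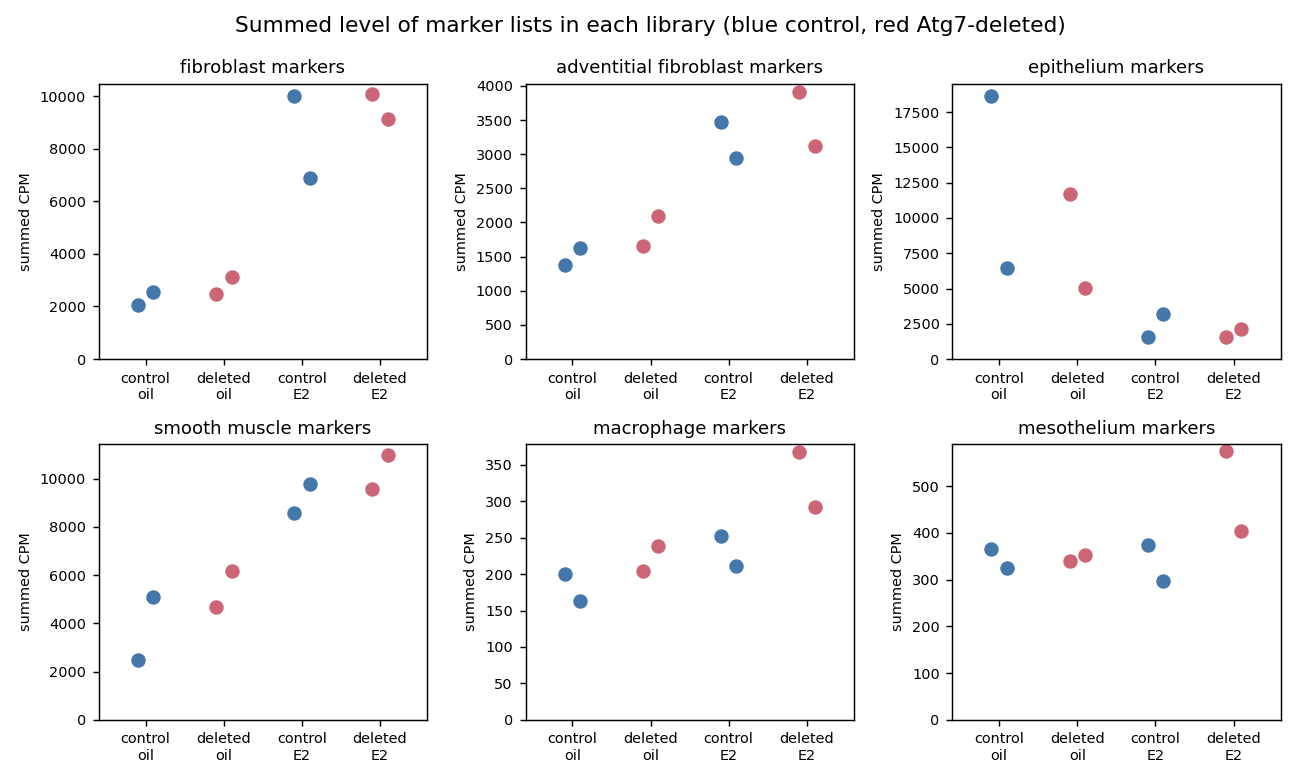
Summed CPM of 6 marker lists in each of the 8 libraries, blue for control and red for Atg7-deleted, on linear axes from 0. Macrophage sums are higher in deleted than in control libraries within each treatment, and the epithelium sum is highest in control oil library 1 at 18667.

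The remaining marker lists gave these sums and calls. Smooth muscle markers summed to 2477 to 5114 CPM in control oil and 4672 to 6157 in deleted oil, with 6 of 12 rising and 1 falling with E2, and Actg2 rose by 2.97 ± 0.40. Endothelium markers summed to between 2136 and 3353 CPM over all libraries, with 3 of 14 rising and 4 falling. Pericyte markers (3 of 8 rose) summed to 199 to 421 CPM over all libraries. Erythroid markers (4 of 5 tested rose) summed to 163 to 199 CPM in control oil and 276 to 496 in control E2. Lymphocyte markers (0 of 1 tested called) summed to 1.38 to 8.04 CPM. Adipocyte markers (1 of 1 tested rose) summed to at most 16.8 CPM, with Plin1 and Retn at 0 in every library. After E2 the genotypes were also apart in the sums of other lists. Schwann cell markers (1 of 3 tested fell with E2) summed to 67.2 to 86.2 CPM in control and 112.6 to 116.9 in deleted E2. Mast cell markers (1 of 5 tested fell) summed to 43.8 to 47.9 against 22.7 to 33.5 CPM, and endothelium markers to 2656 to 2761 against 2136 to 2430 CPM. Lymphocyte markers summed to 1.38 to 2.24 against 2.43 to 4.32 CPM, and stromal transcription factors to 1549 to 1677 against 1723 to 1821 CPM. In oil, erythroid markers summed to 163 to 199 CPM in control against 233 to 241 in deleted stroma. The part of these lists in the deletion differences was not tested. Of 4 tested granulocyte markers 1 rose, and their sum reached at most 29.7 CPM, with Elane at 0 in every library. No gene of any marker list was called for the deletion in edgeR.

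Families and partners of the 10 genes were read from lists of their own, for the average E2 response, whose median over all tested genes was 0.02. Of 12 tested partners of dermatopontin in the matrix, 6 rose and 3 fell (median 0.28), with fibronectin (Fn1) at 1.48 ± 0.11 and the proteoglycan Lum at 2.14 ± 0.16. Of 10 tested genes on the list around tetranectin, which holds plasminogen system genes and lectins, 5 rose and 3 fell (median 0.49). Among these the lectin Clec11a rose by 3.11 ± 0.48, from a low level in control oil (1.14 ± 1.39 CPM). Plaur, the urokinase receptor, fell by 1.24 ± 0.19 and Plat, an activator of plasminogen, fell by 1.16 ± 0.21. Of 11 tested genes on the list around PEDF, 3 rose and 5 fell (median -0.09). The collagen chaperone Serpinh1 rose by 2.56 ± 0.15, the angiogenic factor Vegfa fell by 1.82 ± 0.18 and Plxdc1, a PEDF receptor, fell by 2.49 ± 0.27. All 9 tested genes of the elastase and elastic fibre list rose (median 1.36), with the cross-linking enzyme Loxl1 at 2.02 ± 0.18 and the microfibril genes Mfap2 and Mfap4 at 2.50 ± 0.27 and 1.48 ± 0.17. The pancreatic genes Cela3a, Ctrc and Prss1 of that list were at 0 in every library.

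Among acute phase genes, 4 of 12 tested rose and 2 fell (median 0.05). The iron carrier Lcn2 rose by 5.33 ± 0.24, haptoglobin (Hp) by 4.67 ± 0.43 and complement C3 by 2.58 ± 0.23. The deletion difference of Lcn2 was -1.17 ± 0.36 in oil and -0.51 ± 0.26 after E2, that of C3 -0.22 ± 0.32 and -0.42 ± 0.30, and that of Hp -0.18 ± 0.76 and -0.06 ± 0.46, with no call in edgeR. Of 12 tested netrin receptors and Wnt inhibitors, the list around Draxin, none was called higher and 5 fell (median -0.34), with Wif1 at -5.98 ± 0.29 and Sfrp2 at -1.25 ± 0.22. These counts cover that list, not all Wnt inhibitors: Frzb, a secreted Wnt inhibitor, had an average E2 response of 1.29.

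Around Dpep1, 5 of 11 tested genes of dipeptide, glutathione and leukotriene breakdown rose and 1 fell (median 0.64). Lap3, an aminopeptidase, rose by 1.39 ± 0.14, Ggt5, a glutamyl transferase acting before Dpep1, rose by 1.70 ± 0.22, and Chac1, which degrades glutathione, fell by 2.05 ± 0.24. Ggt5 stood at 13.6 ± 1.81 CPM in control oil, 23.7 ± 7.20 in deleted oil, 46.3 ± 14.8 in control E2 and 73.7 ± 15.9 in deleted E2. Of 19 tested selenoproteins and insertion factors 8 rose and 1 fell (median 0.46). Gpx3, a secreted glutathione peroxidase, rose by 1.47 ± 0.13, the deiodinase Dio2 rose by 1.73 ± 0.26, and Sepp1, the selenium carrier, fell by 1.27 ± 0.13. Of 11 tested phosphotransfer genes related to Ak1, 9 rose and 1 fell (median 0.91), with the nucleoside diphosphate kinases Nme1 at 2.24 ± 0.16 and Nme2 at 1.35 ± 0.17. Of 6 tested genes on the list around Plac8, 2 rose and none fell (median -0.03). These were Plac9a at 2.12 ± 0.36 and Plac9b at 1.85 ± 0.33, near-identical copies whose reads may be split. They share a name stem with Plac8 and are not counted as its relatives here.

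Cells without autophagy often accumulate autophagy receptors as protein and induce NRF2 targets. RNA of both lists gave no call for the deletion in edgeR. RNA counts do not measure the receptor protein, so nothing on autophagy is read from them. The receptor p62 (Sqstm1) stood at 897 ± 12.6 CPM in control oil and 839 ± 63.8 in deleted oil, and at 390 ± 9.26 and 395 ± 40.4 after E2. Another receptor, Calcoco1, had deletion differences of 0.66 ± 0.28 in oil and 0.57 ± 0.29 after E2. For the receptor Fam134b they were 0.07 ± 0.27 and -0.06 ± 0.29. Of 9 tested receptors none rose and 5 fell with E2 (median -0.67). Of 14 NRF2 targets 4 rose and 4 fell (median -0.03). Summed NRF2 targets overlapped in oil (2922 to 4046 CPM in control, 3293 to 3562 in deleted stroma). After E2 they were apart, at 2120 to 2143 against 2655 to 2827 CPM. Receptor sums overlapped in oil (1491 to 1514 against 1431 to 1492 CPM) and were 890 to 893 against 900 to 928 CPM after E2. The cause of these gaps was not tested. Gstm1, a glutathione transferase, fell by 1.35 ± 0.11 with E2, and its deletion difference was 0.30 ± 0.15 in oil and 0.79 ± 0.16 after E2. The deletion differences of Hmox1 were -0.44 ± 0.22 and -0.19 ± 0.23, and those of Me1 0.02 ± 0.26 and 0.07 ± 0.24.

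The genes with the profile most like that of each of the 10 were taken by Pearson r of log2 CPM over the 8 libraries, as a description. The libraries form an oil and an E2 cluster, so r can follow the E2 response, and the libraries share their scaling. It also takes in the genotype pattern on which the 10 genes were chosen. Gatsl2, near Draxin, had an average E2 response of 0.27 and a deletion difference of 0.92 after E2. For Dpt these were Frzb (0.985), a secreted Wnt inhibitor, and Osr1 (0.982), a transcription factor of fibroblasts. Gstm1 (0.979) and Mysm1 (0.980) were nearest to Clec3b, Impa2 (0.997) and Ap3m1 (0.996) to Serpinf1, and Elk1 (0.980) and Smim11 (0.979) to Cela1. Recql and Lyrm2 (0.986 each) were nearest to Saa3, Pygl (0.956) and Gatsl2 (0.941) to Draxin, and Lsp1 (0.971) and Rgs10 (0.966) to Dpep1. For Selm these were Fbxo3 (0.975) and Noa1 (0.973), for Ak1 2510009E07Rik and Mto1 (0.991 each), and for Plac8 Dscr3 and Ptms (0.985 each). The E2 responses of Osr1 (1.38) and Frzb (1.29) were near that of Dpt, and their deletion differences were 0.83 and 0.60 in oil and 0.57 and 0.52 after E2. Both were picked for likeness to Dpt over the same libraries, so this nearness follows from the choice.

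The 10 genes are spread over 9 chromosomes, and Serpinf1 and Selm, both on chromosome 11, start 71.9 megabases apart. RefSeq promoter windows were found for 9 of the 10 genes, 13 windows in all, with Clec3b missing from the table. The GGTCA arm stood in 8 of the 13 windows (those of Ak1, Cela1, Dpep1, Selm and Serpinf1) and in 40.5% of all 32851 windows of that length. The full estrogen response element was in none of the 13 and in 0.07% of all windows. TATAAA was in 4 windows (13.6% of all), TTGCNNAA in 4 (10.8%) and GGGCGG in 1 (35.7%). CCAAT was in 3 (37.4%), the AP-1 site TGANTCA in 1 (7.81%) and the antioxidant response element core TGACNNNGC in 4 (12.4%), 1 of which overlaps the AP-1 match in Ak1. CACGTG, the E-box of the lysosomal CLEAR element (7.15%), and the NF-kB site (0.411%) were in none. Both strands were searched, matches to different motifs may overlap, and these matches describe letters in the windows, not bound sites.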

How the data were processed

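RNA of 8 libraries (500 ng each, per the labels, with a kit that reads 3′ ends) was measured. The authors deposited raw read counts per gene symbol. Bowtie2, edgeR and the build mm10 are listed, with no role or version, per the submitters' processing notes. How reads were counted, and on which annotation, is not given in the sources used here. For 35 repeated symbols only the line with most reads entered (0.0973% of counts were left out). Genes passing filterByExpr (minimum count 10, minimum total 15) were fitted in edgeR 4.0.16 (R 4.3.3) with TMM scaling and a mean per group, with 4 residual degrees of freedom. The script was tested on simulated data. DESeq2 1.42.0, other scalings, no filter, a replicate block and fits without each library were alternatives.

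The 10 genes and the 27 lists were chosen with earlier results of these data known. Named besides are up to 3 tested genes per list with the smallest adjusted p for the average E2 effect, and the 2 genes (mean of at least 5 CPM) with the highest Pearson r with each of the 10. Genes at 0 were named after their values were seen. Motifs were chosen by their known role. Counting intervals are exact at 95%.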

Additional observations from a re-analysis of the deposited data

How the results depend on the processing

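Leaving out 1 library changed the count of the 10 genes called with E2 on average from 10 to between 8 and 10, in control stroma from 9 to between 7 and 9, and in deleted stroma from 8 to between 4 and 9. Other scalings, DESeq2, no filter and the replicate block left these counts within 1 of their value. Library numbers are shared by the groups but nothing says that they pair samples: the difference between library 1 and 2 correlated across genes at 0.494 between control oil and deleted oil and at -0.231 between control oil and control E2. With the replicate block the counts were 10, 9 and 9, and the added gene was Plac8 in deleted stroma (1.13). Plac8 was also past the threshold there in DESeq2 and without the filter. Nothing is read from this, since that response shares its libraries with the deletion differences that chose the genes. Draxin on average missed the threshold in DESeq2 (adjusted p = 0.0846, edgeR 0.0301, and 0.0601 to 0.103 in the 6 fits without 1 library that lost it). For the average deletion difference over all genes, edgeR called 0, DESeq2 called 3 (Ak1, Clec3b and Saa3), edgeR without the filter called 4 (these and Sprr2b, lower, named after its value was seen), and fits without 1 library called 0 to 1 (Sprr2b, without control oil library 2). Since Ak1, Clec3b and Saa3 were chosen on this difference, their calls are no independent support. Depth limits Dpep1 and Draxin most, with 113 and 176 reads over all 8 libraries. The cause of these changes was not tested.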
